A study of Mus musculus with 10 samples.

Results

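The genes described here encode the enzymes that carry out the first chemical step on drugs, other foreign compounds and many lipids: the cytochrome P450s of families Cyp1, Cyp2 and Cyp3, the flavin monooxygenases (Fmo) and the carboxylesterases (Ces). They were taken by name, as every row whose symbol in the array's annotation begins with Cyp1, Cyp2 or Cyp3 and a letter, with Fmo and a digit, or with Ces and a digit, and expression played no part in the choice. This gave 53 of 16475 genes, namely 3 Cyp1, 30 Cyp2, 5 Cyp3, 4 Fmo and 11 Ces genes; all 53 matched the RefSeq gene table by Entrez ID.

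P450s are haem enzymes of the endoplasmic reticulum that insert an oxygen atom into a substrate with electrons delivered by a reductase. Flavin monooxygenases oxidise the nitrogen and sulphur of soft nucleophiles with a bound flavin, and carboxylesterases cut esters and amides, including triglycerides, cholesteryl esters and ester prodrugs. In the kidney these enzymes lie mostly in the proximal tubule, and some Cyp2c and Cyp2j enzymes there turn arachidonic acid into epoxides that act on vessels and sodium transport. Many family members sit in arrays of duplicated genes with closely similar sequence, so signals of neighbours within Ces1, Cyp2c, Cyp2d, Cyp2j and Cyp3a may include RNA from a related copy.

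RNA was measured in kidney cortex from which glomeruli had been removed, in 5 diabetic db/db mice and 5 non-diabetic db/m littermates on the BKS background, all 24 weeks old, with no treatment listed. The db allele disables signalling by Lepr, the receptor for leptin, and db/db mice, with db on both copies, become obese and diabetic, whereas db/m mice carry it on one copy. The allele is inherited in every cell, so effects on the kidney and on the whole body cannot be told apart. The labels give no sex. The Y-linked gene Eif2s3y was at 11.69 to 12.06 in all 10 mice and the X-inactivation transcript Xist at 3.37 to 3.81. Each mouse gave 1 Affymetrix array, and values are log2 expression, where 1 unit is a 2-fold difference; differences are db/db minus db/m with the standard error of the limma fit, and means are given with their SD (n = 5 per group). The Lepr probes gave 4.56 ± 0.09 for db/m and 4.48 ± 0.14 for db/db (adjusted p = 0.637), near background, and do not check the genotype.

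One diabetic mouse, db/db 1, stood apart from the rest, with correlations across genes of 0.938 to 0.962 with the other arrays, against at least 0.985 among the others. Mean levels of 8 leukocyte markers and of 9 tubular injury markers were 11.43 and 12.42 in this mouse, against 7.00 to 9.07 and 8.97 to 10.08 in the other 4 db/db mice and 7.65 to 8.02 and 8.28 to 9.29 in db/m. Results are therefore given with all arrays and again without db/db 1. The tissue label held for the proximal tubule, and which of its segments carry these enzymes was not measured. Its 12 early markers (S1 and S2) averaged 13.06 to 13.21 in db/m, 13.24 to 13.29 in db/db 2 to 5 and 12.57 in db/db 1. The mean of 7 markers of its last segment, S3, was 12.06 to 12.70 in db/m, 9.74 to 10.68 in db/db 2 to 5 and 9.99 in db/db 1, but the 7 did not move as one. The transporter genes Slc22a7 and Slco1a1 fell most (-5.17 ± 0.39 and -4.71 ± 0.46, adjusted p = 0.000232 and 0.00051), and Cyp7b1 and Acsm3 fell by 2.61 and 1.55 (adjusted p = 0.0123 and 0.000338). Slc7a13 did not pass with all arrays (-1.72 ± 0.48, adjusted p = 0.0624), although its groups did not overlap. It fell by 1.21 ± 0.17 without db/db 1 (adjusted p = 0.00195). Slc22a13 did not pass with all arrays (-0.61 ± 0.32, adjusted p = 0.297). Nor did Slc5a1, whose mean was higher in db/db (0.43 ± 0.15, adjusted p = 0.123). Beyond the proximal tubule, 5 thick ascending limb and distal markers averaged 12.03 to 12.33 in db/m. They averaged 12.29 to 12.52 in db/db 2 to 5 and 11.38 in db/db 1. With all arrays 0 of them passed. Without db/db 1, 3 rose: Slc12a3 by 0.46, Calb1 by 0.39 and Aqp2 by 0.57 (adjusted p = 0.014, 0.0313 and 0.00611). Umod and Slc12a1 did not pass. In bulk tissue, fewer cells of a type and less RNA per cell cannot be told apart.

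Diabetic cortex differed from control cortex in a small set of these enzymes, with large falls of an esterase and of a flavin monooxygenase and modest shifts of P450s in both directions. With all arrays, 7 of the 53 genes passed an adjusted p under 0.05 (13.2%), where 6.51% of all 16475 genes passed. Of these 4 fell (7.55%, against 3.54% of all genes): Ces2b, Fmo5, Cyp2j13 and Ces1h. Another 3 rose (5.66%, against 2.96%): Cyp2d22, Cyp2s1 and Cyp2j6. Without db/db 1, 15 genes passed (28.3%, against 12.8% of all genes), 8 higher (15.1%, against 6.84%) and 7 lower (13.2%, against 5.93%). The median difference over the 53 genes was -0.11, or -0.03 without db/db 1, beside -0.03 and -0.01 over all genes. The 2 groups did not overlap for 13 genes (24.5%, against 10.2% of all genes), of which 4 were higher (7.55%, against 4.35%) and 9 lower in db/db (17%, against 5.85%). Without db/db 1 this held for 17 genes (32.1%, against 15.4%), 8 higher (15.1%, against 7.76%) and 9 lower (17%, against 7.61%). Counts of calls depended on single mice, from 4 calls without db/m 4 or db/m 5 to 15 without db/db 1.

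**Figure D1:**
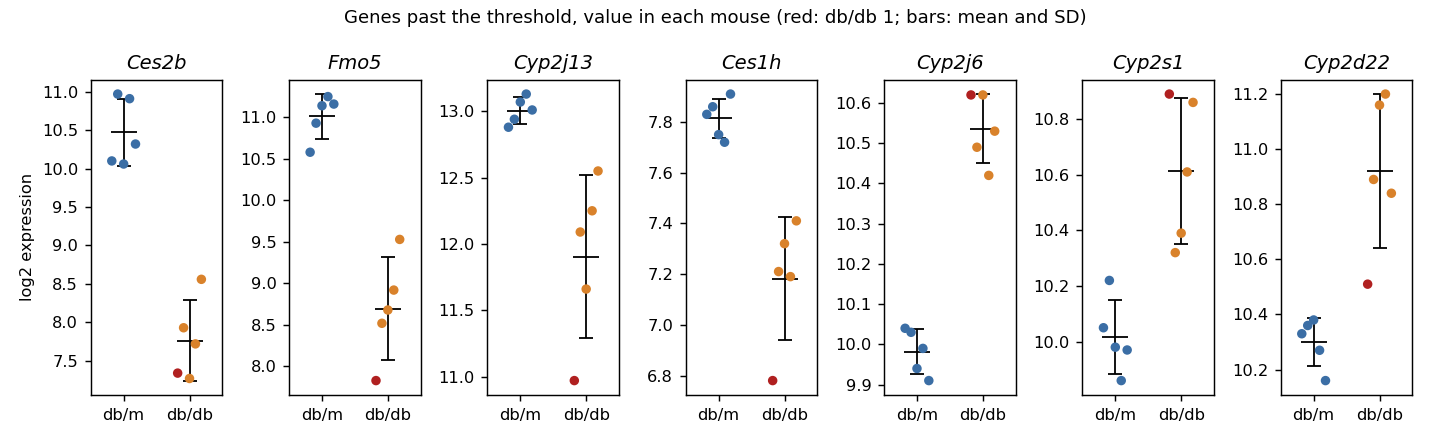
Each panel shows log2 expression (vertical axis, its own range, not starting at 0) of 1 of the 7 genes past the threshold in the 5 db/m and 5 db/db mice, with bars for mean and SD and db/db 1 in red. In all 7 panels the 5 db/db points lie on one side of the 5 db/m points; db/db 1 is the lowest db/db mouse for Fmo5, Cyp2j13, Ces1h and Cyp2d22 and the highest for Cyp2s1.

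The carboxylesterases held the largest fall. Ces2b, an esterase of the endoplasmic reticulum, stood at 10.10, 10.97, 10.06, 10.91 and 10.32 in db/m mice 1 to 5 and at 7.34, 7.93, 7.27, 7.72 and 8.56 in db/db mice 1 to 5. Every diabetic mouse lay well below every control, with a gap of over 1 unit between the groups. The mean fell from 10.47 ± 0.44 to 7.76 ± 0.52, a 6.53-fold drop (-2.71 ± 0.28, adjusted p = 0.000708), and without db/db 1 the drop was 6.07-fold (adjusted p = 0.000627). Of its measured neighbours in the Ces2 array, Ces2g and Ces2e did not go the same way. Ces2g was at 9.23, 8.67, 8.43, 8.34 and 8.89 in db/m and at 7.52, 9.82, 9.58, 9.94 and 9.75 in db/db. Here db/db 1 was below all controls while the other 4 diabetic mice were above all of them, so the difference with all arrays, 0.61 ± 0.43 (adjusted p = 0.459), became a 2.09-fold rise without db/db 1 (1.06 ± 0.17, adjusted p = 0.00414). Ces2e differed by 0.26 ± 0.25 (adjusted p = 0.595), or 0.45 ± 0.19 without db/db 1 (adjusted p = 0.167). Ces2a, dim in both groups, had a slightly lower mean in db/db and did not pass (-0.24 ± 0.20, adjusted p = 0.536).

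All 6 Ces1 genes had lower means in db/db, but 1 of them passed with all arrays. Ces1h was at 7.83, 7.86, 7.75, 7.72 and 7.91 in db/m and at 6.78, 7.21, 7.32, 7.19 and 7.41 in db/db, so the groups did not overlap. It fell 1.55-fold (-0.63 ± 0.11, adjusted p = 0.0105). Its next measured neighbour Ces1g, a carboxylesterase that acts on lipid esters, was at 9.52, 9.89, 9.80, 9.13 and 9.90 in db/m and at 5.44, 8.60, 8.40, 8.44 and 8.54 in db/db. The groups were apart, but db/db 1 was far below the other diabetic mice, and the difference did not pass with all arrays (-1.76 ± 0.56, adjusted p = 0.0958). Without db/db 1, Ces1g fell 2.22-fold (-1.15 ± 0.15, adjusted p = 0.00166). Ces1f, next along the chromosome, had the same form: 13.59 to 13.68 in db/m, 13.13 to 13.37 in db/db 2 to 5 and 11.89 in db/db 1. It differed by -0.69 ± 0.25 with all arrays (adjusted p = 0.131) and fell by 0.43 without db/db 1 (adjusted p = 0.00311).

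The other end of the Ces1 array behaved otherwise. Ces1e, known as egasyn, which holds beta-glucuronidase in the endoplasmic reticulum, was at 13.08 to 13.37 in db/m and 13.25 to 13.46 in db/db 2 to 5, but at 10.42 in db/db 1. Ces1d, a triacylglycerol hydrolase, was at 12.93 to 13.12, at 12.92 to 13.15 and at 11.76 in the same order. For both genes the lower diabetic mean rested on db/db 1 alone: the differences of -0.43 and -0.22 with all arrays (adjusted p = 0.684 and 0.647) became 0.16 and 0.04 without it (adjusted p = 0.208 and 0.775). Ces1c, a secreted plasma esterase, differed by -0.43 ± 0.28 (adjusted p = 0.417). Along the 6 measured genes from Ces1c to Ces1h in RefSeq order, the differences without db/db 1 were -0.20, 0.04, 0.16, -0.43, -1.15 and -0.53, so the called falls lay side by side at the Ces1f, Ces1g and Ces1h end. Whether signal from related copies is shared along this array was not tested.

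Promoter sequence was available for 43 of the 53 genes in the RefSeq windows of GRCm38.p6, which begin 250 bases before a start site. Stretches before the start site are shown for Ces1g and Ces1h, the adjacent esterases that fell together without db/db 1, for Cyp2j13, which fell, and for Cyp2s1, which rose, all read 5′ to 3′ on the gene's own strand. Capitals mark each match on either strand to 5 short motifs: CAAAG, the core of HNF4 sites; GTTAAT, part of an HNF1 site; TATAAA; TTCNNNGAA, the STAT5 type; and GCGTG, the core of the dioxin receptor site. They lie on the minus strand at chr8:93337210-93337459, chr8:93379778-93380027, chr4:96077567-96077797 and chr7:25816526-25816775; the Cyp2j13 stretch ends where the annotated gene begins.
Ces1g: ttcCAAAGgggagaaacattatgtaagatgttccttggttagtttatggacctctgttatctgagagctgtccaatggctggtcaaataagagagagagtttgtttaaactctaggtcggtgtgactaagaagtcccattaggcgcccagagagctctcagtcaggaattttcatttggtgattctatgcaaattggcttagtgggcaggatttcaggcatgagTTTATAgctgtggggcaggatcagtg
Ces1h: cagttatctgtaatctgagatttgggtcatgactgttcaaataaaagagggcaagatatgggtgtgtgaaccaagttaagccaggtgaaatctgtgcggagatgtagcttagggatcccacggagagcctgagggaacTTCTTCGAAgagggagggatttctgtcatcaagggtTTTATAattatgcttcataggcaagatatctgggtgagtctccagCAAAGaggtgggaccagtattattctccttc
Cyp2j13: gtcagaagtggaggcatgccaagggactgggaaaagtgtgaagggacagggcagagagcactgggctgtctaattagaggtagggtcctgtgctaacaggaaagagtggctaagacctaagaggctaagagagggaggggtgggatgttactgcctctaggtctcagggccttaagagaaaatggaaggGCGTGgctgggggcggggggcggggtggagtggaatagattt
Cyp2s1: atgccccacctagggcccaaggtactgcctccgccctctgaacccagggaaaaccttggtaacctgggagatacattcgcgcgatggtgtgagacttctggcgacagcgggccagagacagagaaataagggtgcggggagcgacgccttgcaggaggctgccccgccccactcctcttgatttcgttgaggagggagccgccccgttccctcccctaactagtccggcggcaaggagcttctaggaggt
Ces1g and Ces1h each held CAAAG on the gene strand and TATAAA on the opposite strand, but at different places, the CAAAG beginning 247 and 31 bases before the start site. Ces1h alone of these 4 stretches held TTCNNNGAA, which is its own reverse complement, beginning 112 bases before the start. The Cyp2j13 stretch held 1 GCGTG and the Cyp2s1 stretch none of the 5 motifs. The 43 genes had 1 window of 250 bases each, that of the start site farthest upstream. For all genes every window was counted, 32851 in all, also where a gene had more than 1, so the 2 sets are unlike. CAAAG was found in 36 of the 43 (83.7%) and in 48.6% of all windows, and TATAAA in 18 of 43 (41.9%) against 12.4%. GTTAAT, TTCNNNGAA and GCGTG were found in 2.33%, 4.65% and 11.6% of the 43 windows and in 6.43%, 7.02% and 28.2% of all windows. Duplicated genes share promoter sequence, so these windows are not independent, and a match does not show that a factor binds.

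Of the 4 flavin monooxygenases, Fmo5 fell and the other 3 did not pass. Fmo5, which unlike its relatives acts mainly on ketones as a Baeyer-Villiger oxygenase, was at 10.58, 10.93, 11.14, 11.25 and 11.16 in db/m and at 7.83, 8.52, 8.68, 8.92 and 9.53 in db/db. The groups were apart by about 1 unit, with the lowest value in db/db 1. The fall was 4.98-fold (from 11.01 ± 0.27 to 8.70 ± 0.62, difference -2.32 ± 0.27, adjusted p = 0.00155), and 4.29-fold without db/db 1 (-2.10 ± 0.21, adjusted p = 0.000405). Fmo1, the classical kidney enzyme for N- and S-oxygenation, was at 13.35 to 13.51 in db/m and 13.29 to 13.47 in db/db (-0.04 ± 0.06, adjusted p = 0.74). Fmo2, best known from lung, was at 12.06 to 12.25 in db/m and from 11.12 in db/db 1 to 12.41 in db/db 3 (-0.23 ± 0.21, adjusted p = 0.562). Fmo4 differed by 0.16 ± 0.18 (adjusted p = 0.642), or by 0.32 without db/db 1 (adjusted p = 0.0806). Fmo1, Fmo2 and Fmo4 lie together on a chromosome other than that of Fmo5.

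**Figure D2:**
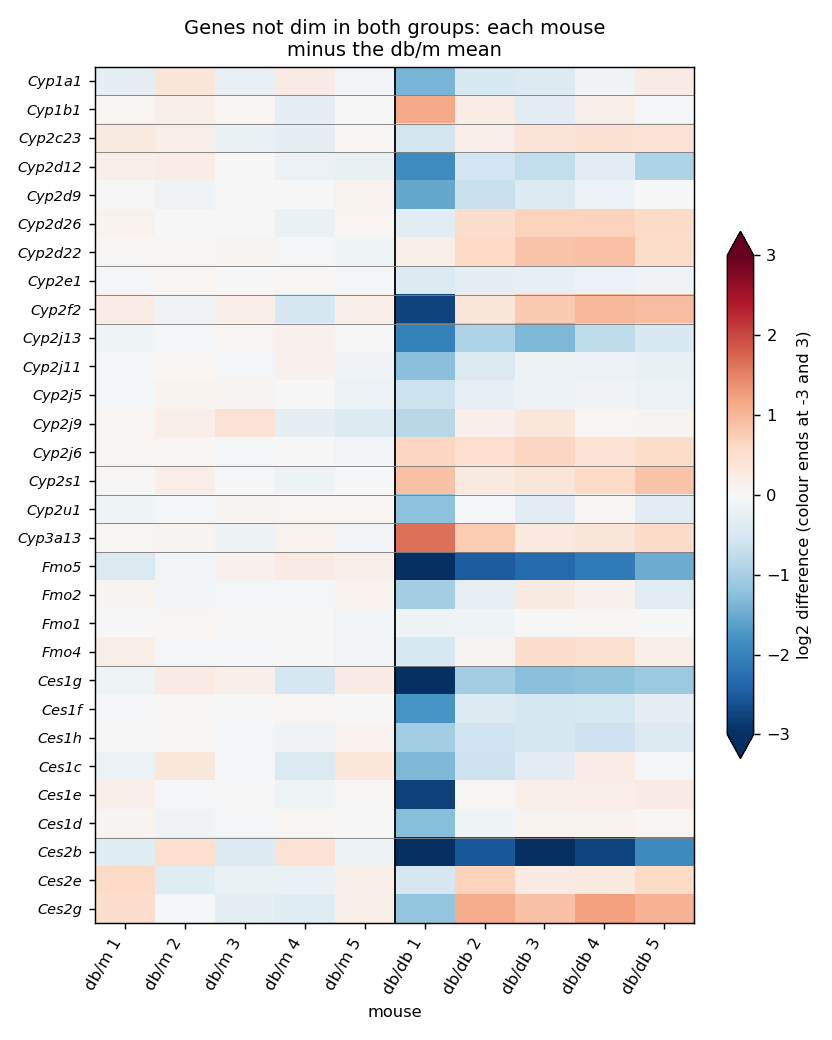
Rows are the 30 genes that were not dim in both groups, ordered by subfamily, and columns are the 10 mice; colour is the log2 value of each mouse minus the db/m mean of that gene, with the scale ending at -3 and 3. Fmo5 and Ces2b are blue in all 5 db/db mice, whereas Cyp2f2 and Ces2g are blue in db/db 1 and red in db/db 2 to 5.

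In the Cyp2j subfamily, arachidonic acid epoxygenases expressed in the kidney, 1 gene fell, 1 rose and 3 did not pass. Cyp2j13 was at 12.88, 12.94, 13.07, 13.13 and 13.01 in db/m and at 10.97, 12.09, 11.66, 12.25 and 12.55 in db/db. The controls were tightly grouped and every diabetic mouse was below them, with a wide spread. The mean fell 2.14-fold (-1.10 ± 0.25, adjusted p = 0.0315), or 1.82-fold without db/db 1 (-0.87 ± 0.15, adjusted p = 0.00607). This call was kept without db/db 1, db/db 4 or db/db 5 and lost without any other single mouse, with adjusted p from 0.0568 (without db/db 2) to 0.0817 (without db/m 3). Cyp2j6 moved the other way, from 10.04, 10.03, 9.94, 9.99 and 9.91 in db/m to 10.62, 10.49, 10.62, 10.42 and 10.53 in db/db. Both groups were narrow, and db/db 1 lay with the other diabetic mice. The rise was 1.47-fold (0.55 ± 0.06, adjusted p = 0.0014) and 0.53 without db/db 1 (adjusted p = 0.000883).

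The remaining Cyp2j genes lay lower or level in db/db without passing. Cyp2j5, the enzyme best described in mouse kidney, was at 12.62 to 12.90 in db/m and 12.16 to 12.70 in db/db (-0.26 ± 0.11, adjusted p = 0.186). Cyp2j11 was at 12.89 to 13.12 in db/m and 11.75 to 12.85 in db/db; the groups did not overlap, but the difference did not pass (-0.44 ± 0.19, adjusted p = 0.22, or -0.24 without db/db 1, adjusted p = 0.0741). Cyp2j9 differed by -0.04 ± 0.23 (adjusted p = 0.938), and by 0.16 without db/db 1 (adjusted p = 0.61). The Cyp2j array lies on the chromosome of Lepr, within 20 Mb of it by GRCm38.p6, where 26 of 246 measured genes passed (10.6%, against 6.51% of all genes). Linkage to the Lepr mutation and an effect of diabetes cannot be told apart for these genes.

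The Cyp2d genes also went in both directions. Cyp2d22, often set beside the human drug-oxidising CYP2D enzyme, was at 10.33, 10.36, 10.38, 10.27 and 10.16 in db/m and at 10.51, 10.89, 11.16, 11.20 and 10.84 in db/db. Every diabetic mouse was above every control, db/db 1 by the smallest margin. It rose 1.54-fold (0.62 ± 0.13, adjusted p = 0.0198), with adjusted p = 0.0525 without db/m 4 and 0.0503 without db/m 5. Cyp2d26 was at 12.69 to 12.99 in db/m, 13.40 to 13.58 in db/db 2 to 5 and 12.57 in db/db 1. It thus differed by 0.44 ± 0.18 with all arrays (adjusted p = 0.199) and rose by 0.62 ± 0.08 without db/db 1 (adjusted p = 0.00119). Cyp2d12 had the opposite direction, at 12.26 to 12.72 in db/m and at 10.61, 11.92, 11.74, 12.16 and 11.55 in db/db. The groups were apart, the difference of -0.89 ± 0.25 did not pass (adjusted p = 0.0672), and it fell by 0.64 without db/db 1 (adjusted p = 0.0153) and by 1.03 without db/db 4 (adjusted p = 0.0489). Cyp2d9, a testosterone hydroxylase of male mice, differed by -0.56 ± 0.25 (adjusted p = 0.224), or by -0.31 without db/db 1 (adjusted p = 0.131). In RefSeq order Cyp2d22 and Cyp2d26 are the outermost of the 7 measured Cyp2d genes, and Cyp2d9 and Cyp2d12 lie between them.

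Among the single Cyp2 genes, Cyp2s1, a P450 of epithelia outside the liver, rose. It was at 10.05, 10.22, 9.98, 9.86 and 9.97 in db/m and at 10.89, 10.32, 10.39, 10.61 and 10.86 in db/db. The groups were nearest at db/m 2 and db/db 2 but did not overlap, and db/db 1 was the highest mouse. The rise was 1.51-fold (0.60 ± 0.13, adjusted p = 0.0218), with adjusted p = 0.063, 0.0595 and 0.0532 without db/m 3, db/m 4 and db/m 5. Cyp2e1, which oxidises ethanol and acetone and is raised by fasting and diabetes in liver, was at 13.89 to 13.99 in db/m and 13.53 to 13.83 in db/db. The groups did not overlap, but the small difference did not pass (-0.24 ± 0.07, adjusted p = 0.0691, or -0.20 without db/db 1, adjusted p = 0.0534). These values are near the top of the scale, and whether differences are compressed there was not tested.

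Cyp2f2, known for oxidising naphthalene in lung airway cells, had the widest diabetic spread of the Cyp2 genes. It was at 8.67, 8.34, 8.63, 7.91 and 8.64 in db/m and at 5.66, 8.80, 9.22, 9.44 and 9.36 in db/db. db/db 1 was far below all controls and the other 4 were above all of them, so the difference was 0.06 ± 0.65 with all arrays (adjusted p = 0.969) and a 1.70-fold rise without db/db 1 (0.77 ± 0.18, adjusted p = 0.0232). Cyp2c23, the main arachidonic acid epoxygenase of rodent kidney, was at 12.18 to 12.73 in db/m, 12.66 to 12.91 in db/db 2 to 5 and 11.90 in db/db 1. It did not pass with all arrays (0.19 ± 0.20, adjusted p = 0.633) or without db/db 1 (0.37 ± 0.12, adjusted p = 0.0721). Cyp2u1, a fatty acid hydroxylase, differed by -0.38 ± 0.21 (adjusted p = 0.33), from 7.41 to 7.62 in db/m and 6.30 to 7.57 in db/db.

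No Cyp1 gene passed in either limma fit; across all 53 genes, 18 had an unadjusted p under 0.05 with all arrays (34%, against 21.5% of all genes). Cyp1a1, a target of the dioxin receptor, was near the dim limit, with means of 5.84 ± 0.29 (db/m) and 5.42 ± 0.61 (db/db) (-0.42 ± 0.27, adjusted p = 0.414). Cyp1b1, another such target, which is found in stromal cells, differed by 0.24 ± 0.23 (adjusted p = 0.594), with 9.42 in db/db 1 and 7.98 to 8.52 in the other 9 mice. Of the 5 Cyp3a genes, 4 were dim in both groups. Cyp3a13 was dim in db/m, at 4.91 to 5.17, and at 6.70, 5.82, 5.36, 5.43 and 5.63 in db/db. The groups did not overlap, and db/db 1 was the highest. The difference of 0.73 ± 0.23 did not pass (adjusted p = 0.0841), and Cyp3a13 rose by 0.51 ± 0.10 without db/db 1 (adjusted p = 0.0115).

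Dim genes made up 23 of the 53. A gene was called dim when both group means were under 5.53, the 95th percentile of the mean levels of 69 olfactory, vomeronasal and taste receptor genes, which kidney is not expected to express at height; the lowest 25% of all genes, under 5.71, gave the same count. They were 7 of 8 Cyp2c genes, all 4 Cyp2b genes, 3 of 7 Cyp2d genes (Cyp2d10, Cyp2d13, Cyp2d34), 4 of 5 Cyp3a genes, and Cyp1a2, Cyp2a12, Cyp2r1, Ces2a and Ces4a. Several are the P450s that dominate mouse liver: Cyp1a2 was at 3.42 to 4.12, Cyp2a12 at 3.17 to 3.67, Cyp2c37 at 3.33 to 3.94, Cyp2c50 at 3.15 to 3.77 and Cyp3a11 at 2.95 to 3.71 over the 10 mice. Cyp2r1, a vitamin D hydroxylase, differed by 0.16 ± 0.11 (adjusted p = 0.438), Cyp2a12 by 0.15 ± 0.10 (adjusted p = 0.421) and Ces4a by -0.25 ± 0.10 (adjusted p = 0.16). A difference in a dim gene is approximate, since background adds to both groups.

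**Figure D3:**
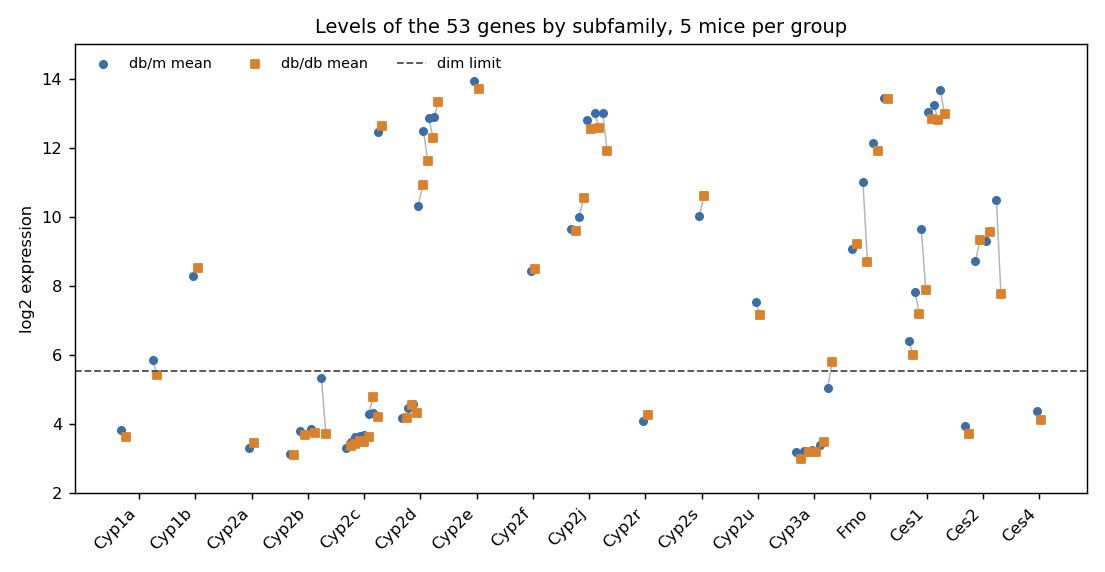
Mean log2 expression (vertical axis, starting at 2) of each of the 53 genes in db/m (circles) and db/db (squares), n = 5 mice each, joined by a line and grouped by subfamily; the dashed line is the dim limit of 5.53. Probes of different genes are not calibrated against each other, so heights compare groups within a gene and position against the limit, where most Cyp2b, Cyp2c and Cyp3a genes lie below it.

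Cyp2b10 and Cyp2c29 were exceptions among the dim genes. Cyp2b10, the usual target of the constitutive androstane receptor Nr1i3, was at 3.67, 4.70, 6.34, 7.08 and 4.92 in db/m and at 3.51, 3.68, 3.80, 3.75 and 3.85 in db/db. The controls were widely spread, with 4 of 5 above all diabetic mice and db/m 1 among them, while the diabetic mice were all at the floor. The difference of -1.62 ± 0.54 did not pass (adjusted p = 0.113), nor did that without db/db 1 (-1.57 ± 0.59, adjusted p = 0.118). Of the 10 fits that each left out 1 mouse, 1 gave a call for Cyp2b10. This was the fit without db/m 1, the control among the diabetic mice (-2.04, adjusted p = 0.038). Cyp2c29 was at 4.07 to 4.46 in db/m, 5.01 to 5.11 in db/db 2 to 5 and 3.68 in db/db 1. Its difference was 0.49 ± 0.26 with all arrays (adjusted p = 0.3) and it rose by 0.77 ± 0.08 without db/db 1 (adjusted p = 0.000694). The other 21 dim genes differed by -0.27 to 0.16 and did not pass in either fit.

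Mouse db/db 1 had the lowest value of all 10 mice for 38 of the 53 genes (71.7%), against 41.6% of all genes, and the highest for 4 (7.55%, against 19.9%). Its value was more than 1 unit below the db/m mean for 18 of the 53 genes, against 4 or 5 in each other diabetic mouse. The share of all genes this far below was not counted. For the 11 carboxylesterases its median distance from the db/m mean was -1.28, against -0.12 to -0.34 in db/db 2 to 5, and for the 30 Cyp2 genes it was -0.47, against -0.08 to 0.06. Cyp2s1, Cyp1b1, Cyp3a13 and Cyp2r1 were the genes highest in this mouse. For 4 genes (7.55%, against 1.79% of all genes) db/db 1 was below every control while db/db 2 to 5 were above every control: Ces2g, Cyp2c29, Cyp2d26 and Cyp2f2. Over the 53 genes the median SD within db/db was 0.37, or 0.13 without db/db 1, against 0.13 within db/m. Over all genes it was 0.22 within db/db, 0.14 without db/db 1 and 0.15 within db/m. The leukocyte and injury markers were high in db/db 1 beside its low enzyme values, and their part in those values was not tested. Injury markers were not confined to db/db 1: 4 of 9 rose with all arrays and 4 without it, against 2.96% and 6.84% of all genes. Without db/db 1, the keratin genes Krt18 and Krt19 rose by 0.94 ± 0.09 and 1.62 ± 0.35 (adjusted p = 0.000382 and 0.0154), the cell cycle inhibitor gene Cdkn1a by 1.43 ± 0.17 (adjusted p = 0.000916) and Clu by 0.37 ± 0.08 (adjusted p = 0.015). These rises accompanied the enzyme changes of the other 4 diabetic mice, and their part in those changes was not tested either.

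**Figure D4:**
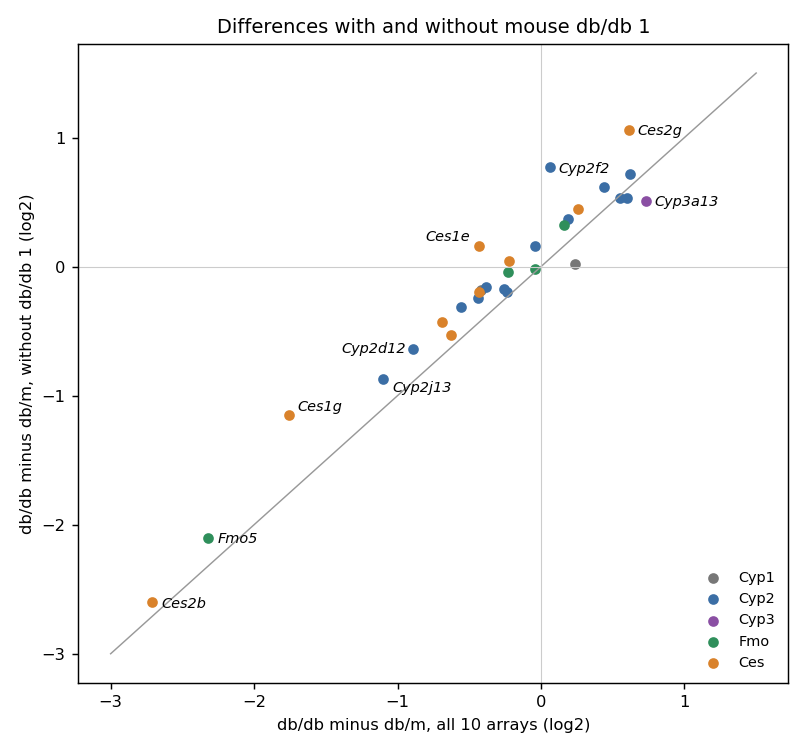
Each point is 1 of the 30 genes not dim in both groups; the horizontal axis is the log2 difference db/db minus db/m with all 10 arrays and the vertical axis the same without db/db 1, with the line of equal values and colours for the families. Most points lie above the line, Cyp2f2 (0.06 and 0.77) and Ces1e (-0.43 and 0.16) among the farthest, and Ces2b (-2.71 and -2.60) and Fmo5 (-2.32 and -2.10) keep large negative differences on both axes.

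The listed partners of these enzymes gave no call with all arrays. The P450 reductase gene Por was not among the genes examined, so nothing is said of it. Of 10 measured genes for electron transfer and haem supply or breakdown 0 passed in the limma fit, with or without db/db 1. With all arrays 1 had an unadjusted p under 0.05. This was Cyb5a, cytochrome b5 (13.77 ± 0.13 to 13.53 ± 0.10, difference -0.24 ± 0.08, adjusted p = 0.11). The list's median difference was -0.09. Of 16 receptors and transcription factors that control drug metabolism genes 1 rose and 0 fell (against 2.96% and 3.54% of all genes). Their median difference was 0.03. The gene that rose was Nr1i2, which encodes the xenobiotic receptor PXR: 7.09, 7.02, 6.74, 6.48 and 6.77 in db/m and 7.93, 7.72, 7.51, 7.48 and 7.74 in db/db (0.85 ± 0.13, adjusted p = 0.00598). Every diabetic mouse was above every control. Without db/db 1, Cebpb rose by 0.39 (adjusted p = 0.0173) and the glucocorticoid receptor gene Nr3c1 fell by 0.26 (adjusted p = 0.0433).

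Of 16 other first-step enzymes measured, 4 rose and 1 fell (against 2.96% and 3.54% of all genes), with a median difference of 0.01. Ephx1, the microsomal epoxide hydrolase that opens epoxides made by P450s, rose 2.34-fold, from 10.91 ± 0.10 to 12.14 ± 0.25 (1.23 ± 0.12, adjusted p = 0.000495). The monoamine oxidase gene Maob rose 2.63-fold (1.39 ± 0.26, adjusted p = 0.0128) and Maoa 1.46-fold (0.55 ± 0.11, adjusted p = 0.0191). Cbr1, a carbonyl reductase, rose 1.72-fold (0.78 ± 0.11, adjusted p = 0.00483), and the alcohol dehydrogenase gene Adh1 fell 1.48-fold (-0.56 ± 0.08, adjusted p = 0.00465). For all 5 genes the groups did not overlap. Ephx2, which hydrolyses the fatty acid epoxides made by Cyp2c and Cyp2j enzymes, was not past the threshold (-0.18 ± 0.07, adjusted p = 0.181).

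Markers of other tissues are given because liver and adrenal gland also carry P450s. Of the 10 measured hepatocyte markers 3 were dim in both groups, among them Cyp7a1, at 3.41 to 3.88, and the prothrombin gene F2, at 3.67 to 4.18, and the list averaged 7.45 to 7.88 in db/m, 7.67 to 7.95 in db/db 2 to 5 and 7.26 in db/db 1. Alb, the albumin gene, was detected, at 9.56 to 10.83 in db/m, 10.07 to 11.02 in db/db 2 to 5 and 6.63 in db/db 1. The flat average hid opposite directions: Apoh, at 10.62 to 11.80 in db/m, was at 9.19 to 9.33 in db/db 2 to 5 and 11.76 in db/db 1, and it fell by 2.07 without db/db 1 (adjusted p = 0.000837; -1.57 ± 0.50 with all arrays, adjusted p = 0.0933). The fibrinogen gene Fga differed by 1.23 ± 0.45 (adjusted p = 0.14) and by 0.84 without db/db 1 (adjusted p = 0.106). Of the 8 adrenal cortex markers 5 were dim in both groups, among them Cyp11b1 at 3.29 to 3.83 and Cyp11a1 at 4.15 to 4.64. The others were above the dim limit in mean, with Cyp21a1 at 5.56 to 6.38 and Star at 6.49 to 7.36. Hsd3b1 differed by 1.05 ± 0.46 with all arrays (adjusted p = 0.218), where 0 of the 8 passed. It rose by 1.52 ± 0.21 without db/db 1 (adjusted p = 0.00187), the 1 call of this list. The 5 podocyte markers averaged 9.05 in db/db 1 and 9.27 to 9.44 in db/db 2 to 5. Averages in db/m ran from 8.65 to just under that of db/db 1, so this mouse cleared the controls only narrowly. Its values for Nphs1 (7.36) and Podxl (8.75) lay within the db/m ranges, and those for the other 3 markers lay above every control. These 3 rose with all arrays: Ptpro (0.58 ± 0.10, adjusted p = 0.01), Synpo (0.46 ± 0.08, adjusted p = 0.0107) and Wt1 (0.45 ± 0.09, adjusted p = 0.0196). The 6 endothelial markers averaged 9.10 to 9.32 in db/m and 9.07 to 9.30 in db/db. This average also hid opposite directions. Pecam1 was higher in every db/db mouse than in every control (0.29 ± 0.08, adjusted p = 0.0546). It passed without db/db 1 (0.25 ± 0.07, adjusted p = 0.0469), the 1 call of this list. Kdr, Flt1 and Emcn had lower means in db/db (-0.27, -0.17 and -0.01) and did not pass. Of the 7 S3 markers, 4 fell with all arrays (against 3.54% of all genes), in the same comparison as Ces2b, Fmo5 and Cyp2j13. Without db/db 1 this was 5 (against 5.93% of all genes), with Slc7a13 added. Slc22a13 overlapped between the groups and the mean of Slc5a1 was higher in db/db. The part of the S3 markers in the enzyme falls was not tested.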

How the data were processed

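Values were read from 1 deposited table of 10 arrays, 1 per mouse. The deposited values are on a log2 scale; the submitters' processing notes name RMA. Neither the RMA version nor how probes were joined into 1 value per Entrez Gene ID is given in the sources used here. RMA shares quantiles across arrays among probe values, so differences are relative to the array as a whole. The deposited gene values still differed somewhat in their array medians. Centring arrays on their medians moved the difference of Cyp2d22 from 0.62 to 0.55 (limma adjusted p = 0.0492). The values were used as deposited, after leaving out 64 control rows; 695 of 16475 gene rows had no symbol in the supplied annotation and were tested unnamed. Array medians were 8.46 to 8.66, no pair of arrays was a copy, and no columns were unused. Arrays give no counts, and their number limits the precision.

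The comparison of db/db with db/m used limma 3.58.1 under R 4.3.3 (lmFit, eBayes without trend, two-sided), adjusted with Benjamini-Hochberg over all 16475 genes at a threshold of 0.05. The fit was tested on simulated data. No list test was run. Named genes were every gene past the threshold with all arrays or without db/db 1, and per subfamily the gene with the highest db/m mean and that with the lowest adjusted p (25 genes); the other genes that were not dim were added (35 in all), dim genes were given by level, and up to 4 genes were named per list, others there being chosen after their values were seen. Genes and lists were chosen with earlier results of these data known. The labels state no pairing by mouse number, and none was seen (correlations of same-numbered deviations -0.09 to 0.01), though so few mice cannot exclude it. Promoters came from RefSeq GRCm38.p6; genes were ordered by the RefSeq gene table of that build. Figures used Python 3.11.15 and matplotlib 3.10.9. Alternatives were the mouse number as a block, the lowest 25% of genes left out, repeated quantile normalisation, median-centred arrays, array weights, each mouse left out in turn, a robust eBayes with a trend, an adjusted p under 0.01 and at least a 1.5-fold change.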

Additional observations from a re-analysis of the deposited data

Results flagged for a closer look

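Values of 35 genes in 2 groups of 5 mice gave 70 sets. In 16 sets 1 mouse lay far from the other 4, by a gap of over 0.71 of the whole range. Chance gives about 1 in 20 for a single set. These sets share the same arrays, and db/db 1 stood apart over all genes, so the 16 cannot be compared with that rate. In 13 of the 16 the mouse was db/db 1, always as the lowest of its group. Its values were 11.76 for Ces1d, 10.42 for Ces1e, 11.89 for Ces1f, 5.44 for Ces1g and 7.52 for Ces2g among the esterases. They were 11.90 for Cyp2c23, 3.68 for the dim Cyp2c29, 12.57 for Cyp2d26, 5.66 for Cyp2f2 and 6.30 for Cyp2u1, and 11.75, 12.16 and 8.80 for Cyp2j11, Cyp2j5 and Cyp2j9. The nearest other diabetic mouse was at 13.25 for Ces1e, at 8.40 for Ces1g and at 8.80 for Cyp2f2. The other sets were in controls and small in size: Ces1f at 13.59 and Fmo4 at 9.26 in db/m 1, and the dim Ces4a at 4.11 in db/m 3.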

How the results depend on the processing

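Ces2b, Fmo5, Cyp2j6 and Ces1h kept their calls and directions in all 10 fits that each left out 1 mouse and in the other 6 refits. Of 7 calls, 4 were left with the mouse number as a replicate block (1 higher, 3 lower): Cyp2j13, Cyp2d22 and Cyp2s1 reached adjusted p of 0.0643, 0.0665 and 0.0876. The labels state no such pairing and none was seen, but it was not excluded. Array weights, which gave db/db 1 a weight of 0.102, raised the count to 16 (8 higher, 8 lower), and an adjusted p under 0.01 left 3 (1 higher, 2 lower). Leaving out 1 mouse at a time gave 4 to 15 calls, 1 to 8 higher and 3 to 7 lower. Among genes that did not pass, array weights turned the differences of Ces1d, Ces1e and Cyp2j9 to 0.03, 0.10 and 0.03, and median centring turned that of Cyp2f2 to -0.01. Over the fits without 1 mouse the differences ranged from -0.31 to 0.04 for Ces1d, -0.60 to 0.16 for Ces1e, -0.18 to 0.77 for Cyp2f2 and -0.14 to 0.16 for Cyp2j9. Trend and robust settings added Cyp2e1 (adjusted p = 0.0231). Signal near background limits the 23 dim genes.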
